A study of Mus musculus with 7 samples.

Results

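The replication-dependent histone genes were the genes of GENCODE M1, the annotation of the mm9 mouse genome, whose names start with Hist1h, Hist2h, Hist3h or Hist4h. The rule found 70 of 37310 genes, and 69 of them could be measured, among 31498 genes with at least 200 exonic bases that belong to 1 gene of a strand. The remaining member, Hist2h2aa1, kept 16 such bases because Hist2h3c1 overlaps it. RNA-seq of 4 F123 embryonic stem (ES) cell cultures gave the levels, and ChIP-seq of 3 cultures gave the promoter marks. F123 is an F1 hybrid line from Mus musculus castaneus (CAST) and S129/SvJae (129) mice, so the 2 alleles of each gene come from different strains.

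The wild type cells carried the distal Sox2 super-enhancer on both alleles (CAST+/129+). CAST+/129- cells had lost the 129 copy, CAST-/129+ cells the CAST copy and CAST-/129- cells both copies. Where 4 values follow each other they are in the order wild type, CAST+/129-, CAST-/129+ and CAST-/129-, and where 3 do, in the order of the mutant libraries. Each mutant genotype was a single CRISPR clone with 1 library, and wild type was 1 library too, so no difference below has a replicate check and no p-value is given. Clones were recovered on feeder cells of embryonic fibroblasts, and the last passages before harvest were on gelatin alone. H3K4me3 and H3K27ac ChIP-seq came from wild type F123 cells, and a second H3K27ac library came from J1, another mouse ES cell line.

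Cells need new histones while they copy their DNA, and the genes described here make the bulk of them in S phase. Their mRNAs are unlike other mRNAs: they carry no polyA tail, and end just past a stem-loop that the stem-loop binding protein Slbp holds. Some of these genes can also give polyadenylated transcripts. The RNA here was captured with oligo(dT) before sequencing, so each level is that of the histone RNA retained by this capture and not of the whole histone mRNA pool.

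The members comprised 6 genes of the linker histone H1, 19 of H2a, 19 of H2b, 12 of H3 and 13 of H4 among those measured. H2a, H2b, H3 and H4 form the core of the nucleosome, and H1 binds the linker DNA. Chromosome 13 held 56 members, and 55 of these lay in a first group of 24 at chr13:21807632-22135545 and a second group of 31 at chr13:23622919-24026720. Hist1h2al lay apart on chromosome 13, at chr13:51298057-51298434. Chromosome 3 held 10 members at chr3:96023839-96082924, chromosome 11 held 3, and Hist4h4 lay alone on chromosome 6.

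The stem-loop could be read directly from the genome. The histone stem-loop pattern of 16 bases (GG, 2 free bases, CTTTT, a free base, AG, 2 free bases, CC), searched on the coding strand in the 120 bases past the end of the coding sequence, occurred in 58 of 67 coding members (86.6%). It occurred in 3 of 22313 other coding genes (0.0134%). The following stem-loops are shown because their genes carry the results below or differ in the letters of the stem. Capitals mark the 16 bases of the motif, and each sequence runs 5′ to 3′ on the coding strand of mm9.
Hist1h4i, chr13:22132835-22132850 (minus strand): taaaGGCCCTTTTTAGGGCCaccacaaaat
Hist1h4d, chr13:23673819-23673834 (plus strand): caaaGGCCCTTTTCAGGGCCactaccttct
Hist1h1b, chr13:21871706-21871721 (minus strand): caaaGGCTCTTTTCAGAGCCacctagagag
Hist1h2bc, chr13:23776516-23776531 (plus strand): caaaGGCTCTTTTCAGAGCCacccactttc
Hist1h1c, chr13:23831381-23831396 (plus strand): aaaaGGCTCTTTTCAGAGCCaccactccca

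The motif took 6 forms. The form of Hist1h1b, Hist1h2bc and Hist1h1c was carried by 37 members, the form of Hist1h4d by 8 and that of Hist1h4i by 2. Among the measured members, 58 held the motif and 11 did not. The search covered 1 pattern and these 120 bases only.

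Promoters were read from RefSeq (GRCm38.p6, 250 bases before to 50 bases after the start), which matched 61 of 70 members. Hist1h1b and Hist1h4i are shown because they were the members that passed 3-fold in CAST-/129+ (below). Capitals mark matches, on either strand, to the TATA box (TATAAA), the CCAAT box (CCAAT) and the octamer (ATTTGCAT), which is a binding motif of Oct factors. The coordinates of these promoters are on GRCm38.p6 and cannot be set beside the mm9 coordinates.
Hist1h1b, chr13:21780576-21780875 on GRCm38.p6 (minus strand): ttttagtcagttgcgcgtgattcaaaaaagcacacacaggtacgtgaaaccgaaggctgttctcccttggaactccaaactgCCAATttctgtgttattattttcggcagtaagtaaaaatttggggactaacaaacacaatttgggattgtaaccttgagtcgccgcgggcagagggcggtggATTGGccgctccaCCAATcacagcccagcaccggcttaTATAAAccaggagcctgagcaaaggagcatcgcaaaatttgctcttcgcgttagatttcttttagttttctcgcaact
Hist1h4i, chr13:22041313-22041612 on GRCm38.p6 (minus strand): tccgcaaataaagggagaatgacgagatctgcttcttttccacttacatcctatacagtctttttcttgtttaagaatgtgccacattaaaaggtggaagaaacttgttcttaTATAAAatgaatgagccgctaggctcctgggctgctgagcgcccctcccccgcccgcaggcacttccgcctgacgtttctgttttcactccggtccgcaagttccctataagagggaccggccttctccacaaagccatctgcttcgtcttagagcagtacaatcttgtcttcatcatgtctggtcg

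The Hist1h1b promoter held 3 CCAAT boxes and that of Hist1h4i none. The CCAAT box was present in every matched promoter of H1 (6), H2a (17), H2b (16) and H3 (10), but in 3 of the 12 matched H4 promoters. Of all 27025 RefSeq promoters, 37.9% held it. TATAAA occurred in 35 of the 61 member promoters (57.4%) against 14.2% of all promoters. The octamer occurred in 7 H2a and 6 H2b promoters and in none of H1, H3 or H4, against 1.75% of all promoters. These matches are descriptions of letters in the sequence and not of bound factors.

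Levels are given as FPKM, the alignments per kilobase of countable exon scaled to the alignments on genes, and sums over genes as CPM, the count per 1000000 alignments on genes. Wild type had 24891864 alignments on genes and CAST-/129- had 5847451, and the 69 members drew 4742, 3850, 2559 and 1792 alignments in the 4 libraries. Intervals are exact 95% intervals (Poisson for a level, binomial for a ratio) and cover counting error only. Alignments were counted without molecular identifiers, and the intervals would be too narrow where both mates of a pair gave an alignment.

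The H2a genes Hist1h2af, Hist1h2ao, Hist1h2ap and Hist1h2ag had the highest levels of their type. Hist1h2af was the highest of the members in wild type at 36.9 FPKM, and stood at 44.4, 43.7 and 29.1 FPKM in the mutant libraries. Hist1h2ao was at 22.1, 32.1, 29.5 and 21.4 FPKM in the same order, and Hist1h2ap, its identical copy, at 17.7, 29.3, 29.2 and 17.8 FPKM. Hist1h2ag was at 10.7, 16.2, 24.4 and 16.3 FPKM, so CAST-/129+ was its highest library. The H4 genes were lower in wild type, led by Hist1h4d at 5.93 and Hist1h4i at 5.09 FPKM. No H1, H2b, H3 or H4 gene exceeded 7.10 FPKM in wild type.

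**Figure D1:**
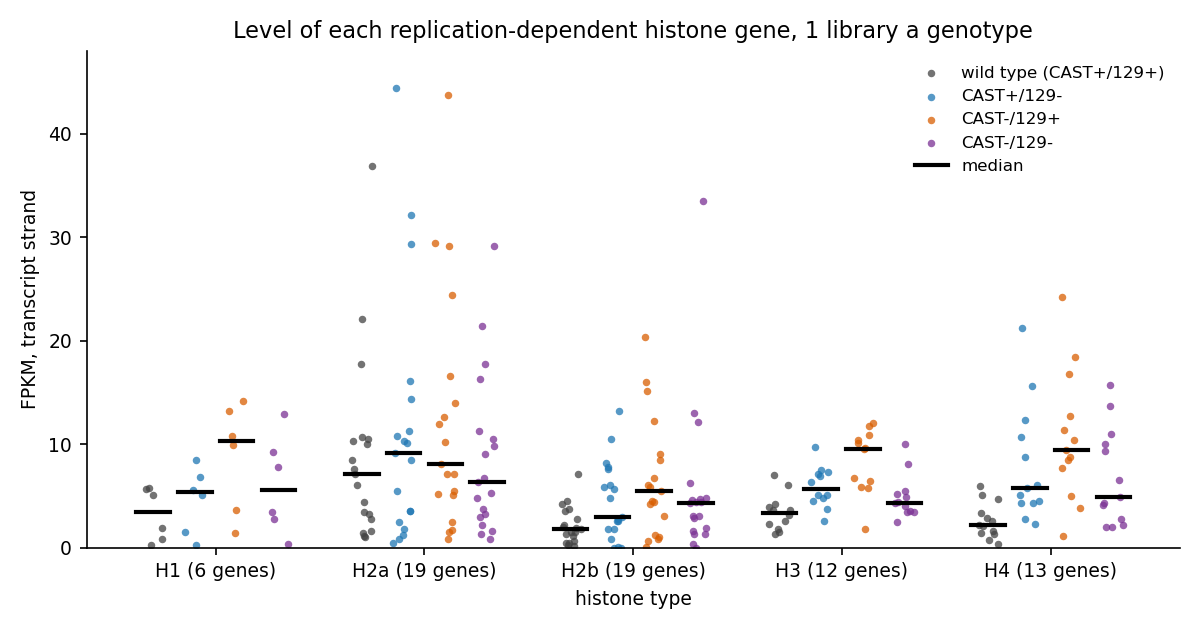
Level in FPKM (vertical axis, linear) of each of the 69 measured members, grouped by histone type (horizontal axis). Points are genes, colours are the 4 libraries and black lines are medians over genes. H2a held the highest genes in wild type, up to 36.9 FPKM, while the 13 H4 genes stayed at or below 5.93 FPKM there and reached 24.2 FPKM in CAST-/129+.

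Summed over the members, the histone signal was higher in each mutant library than in wild type. It was 190.5, 308.3, 421.0 and 306.5 CPM in the 4 libraries. The ratio to wild type was 1.62 (1.55 to 1.69), 2.21 (2.11 to 2.32) and 1.61 (1.52 to 1.70) in that order. These ratios, and those by type below, depend on counting distinct alignments. Reads per distinct alignment were 2.61, 1.78, 1.63 and 1.47 on all genes in the 4 libraries, and 1.44, 1.21, 1.20 and 1.13 on members. Reads before collapsing would therefore give higher ratios, outside what the intervals cover. With such reads the median log2 ratio of the members was 0.43, 0.78 and 0.42. The 3 comparisons share the wild type library, so its own deviation enters all of them. The sums are of the bulk RNA retained by the oligo(dT) capture. More cells that make these transcripts, more of them per cell and a larger retained share cannot be told apart.

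The types differed. H4 went from 16.03 CPM in wild type to 47.4, 65.0 and 39.5 in the mutant libraries, which is 2.96 (2.60 to 3.37), 4.05 (3.52 to 4.67) and 2.46 (2.09 to 2.91) times wild type. H2a went from 85.9 to 110.9, 123.5 and 86.0, or 1.29 (1.21 to 1.38), 1.44 (1.32 to 1.56) and 1.002 (0.907 to 1.10) times wild type. In each mutant library the interval of H4 lay above that of H2a, a separation that was lost in CAST-/129- when only positions that occur once were counted (below).

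For H2b, H1 and H3 the ratios were above those of H2a as well. When only positions that occur once were counted (below), they were still above. Their intervals then overlapped that of H2a, except for H2b in CAST-/129-. H2b was 1.91, 2.93 and 2.56 times wild type, H1 was 1.49, 2.74 and 2.12 times, and H3 was 1.62, 2.26 and 1.51 times. In CAST-/129- the intervals of H2b (2.28 to 2.87) and H4 overlapped. H2a had the highest sum of the 5 types in each of the 4 libraries when full exons were counted. Over positions that occur once, which kept 9 H2a genes, H2a had the lowest count of the 5 types, at 176, 124, 91 and 59 alignments.

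**Figure D2:**
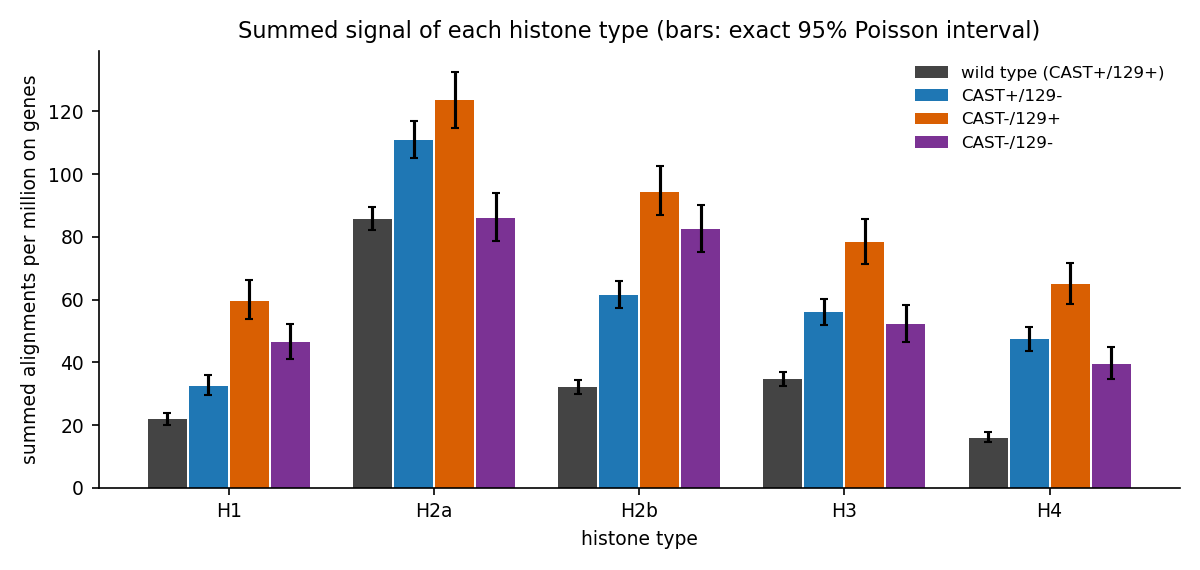
Summed alignments as CPM (vertical axis, from 0) for each histone type (horizontal axis) in the 4 libraries (colours), with exact 95% Poisson intervals for counting error. H4 is at 16.03 in wild type and 65.0 in CAST-/129+, while H2a is 85.9 in wild type and 86.0 in CAST-/129-.

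Single genes were called by the ratio of FPKM plus 4, a pseudo-value that damps low levels, at 3-fold. In CAST-/129+ 2 of 69 members rose, Hist1h1b and Hist1h4i, where 0.473% of all genes did. In CAST-/129- 1 member rose, Hist1h2bc, where 0.813% of all genes did, and in CAST+/129- none rose, against 0.321% of all genes. Among the 13818 genes with a mean of at least 1 FPKM the shares that rose were 0.731%, 1.08% and 1.85%. No member fell past 3-fold in any comparison, where 0.305%, 0.330% and 0.511% of all genes did in the mutant libraries. This was largely fixed by the rule, because with 4 FPKM added a low wild type level cannot fall past 3-fold. No H1, H2b, H3 or H4 gene exceeded 7.10 FPKM in wild type, too low for such a call, so only some H2a genes could be called lower. The calls in CAST-/129+ and CAST-/129- were lost under some other settings, given in the last section.

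At 2-fold the members called higher were 4 in CAST+/129-, 17 in CAST-/129+ and 6 in CAST-/129-, against 0.905%, 1.22% and 2.0% of all genes and 2.06%, 2.78% and 4.55% of genes with a mean of at least 1 FPKM. None was lower by 2-fold, where 1.27%, 1.53% and 1.92% of all genes were. Members below 4 FPKM in wild type could not be called lower at 2-fold. Of the 17 in CAST-/129+, 8 were H4 genes, 5 H2b genes, 2 H3 genes, 1 an H1 gene and 1 an H2a gene (Hist1h2al).

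Hist1h1b, at chr13:21871752-21872494 on the minus strand of mm9, encodes a linker histone of dividing cells. It was at 1.95, 5.61, 14.2 and 9.21 FPKM in the 4 libraries. Its ratio to wild type in CAST-/129+ was 7.28 (4.77 to 11.3), or 1.61 on the log2 scale with the pseudo-value. Every 50-base stretch of its exon occurs once in the genome.

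Hist1h4i, an H4 gene at chr13:22132685-22133221 on the minus strand, was at 5.09, 15.7, 24.2 and 13.7 FPKM in the 4 libraries. Its ratio was 3.08 (2.25 to 4.24), 4.76 (3.396 to 6.68) and 2.69 (1.79 to 4.001) in the mutant libraries. Hist1h4d was highest in CAST+/129-, at 21.2 FPKM against 5.93 in wild type, 18.4 in CAST-/129+ and 10.01 in CAST-/129-. The highest H4 level in CAST-/129- was that of Hist1h4m, with 15.7 FPKM against 4.70 in wild type. Hist1h4h, at 3.33 FPKM in wild type, reached 16.8 in CAST-/129+ and 6.55 in CAST-/129-. The 13 H4 genes were above wild type in each mutant library, by values that the counting intervals separated from 1 for 12, 12 and 8 of them, where 34.8%, 30.9% and 31.1% of genes with a mean of at least 1 FPKM had such intervals.

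Among the H2b genes Hist1h2bg was at 4.49, 10.5, 16 and 12.2 FPKM and Hist1h2bn at 4.22, 7.57, 15.1 and 6.28 FPKM in the 4 libraries, both highest in CAST-/129+. Hist1h2bk was highest in CAST+/129-, with 1.85, 8.19, 5.84 and 4.64 FPKM and log2 ratios of 1.06, 0.75 and 0.56. Hist1h2bl was highest in CAST-/129-, with 3.59, 7.78, 9.07 and 13 FPKM and log2 ratios of 0.63, 0.78 and 1.17. The linker histone gene Hist1h1e was at 5.80, 6.85, 13.2 and 7.77 FPKM, highest in CAST-/129+.

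Counting intervals of the ratio lay above 1 for 45 of 69 members in CAST+/129-, 51 in CAST-/129+ and 29 in CAST-/129-. The same held for 19%, 17.7% and 18.3% of all genes, and for 34.8%, 30.9% and 31.1% of genes with a mean of at least 1 FPKM. Intervals lay below 1 for Hist3h2a in CAST+/129- and for Hist1h2aj in CAST-/129-, and for no member in CAST-/129+, against 21.6%, 20.3% and 20.9% of all genes and 39.9%, 40.2% and 41.7% of genes with a mean of at least 1 FPKM.

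The median log2 ratio over the 69 members was 0.39, 0.63 and 0.32 in the mutant libraries, beside 0.00 over all genes in each. The median over all genes includes many with little or no signal. With a mean of at least 1 FPKM, the median over genes was -0.03, -0.07 and -0.08, and that of the 64 members left was 0.43, 0.66 and 0.33. Histone genes are short, with a median of 524 countable bases. The 1338 other genes of 200 to 800 countable bases with a mean of at least 1 FPKM had medians of 0.00, -0.09 and -0.29, while the 52 members of that length had 0.49, 0.78 and 0.29.

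At the low end, Hist1h2aj and Hist1h2an had the lowest log2 ratios in CAST-/129- among members with a mean of at least 5 FPKM. Hist1h2aj, annotated as a pseudogene, was at 10.5, 10.8, 10.2 and 5.30 FPKM in the 4 libraries. Hist1h2an was at 8.48, 9.17, 7.12 and 4.79 FPKM. Among the same members Hist2h2aa2 had the lowest ratio in the single-allele clones, with 10.3 FPKM in wild type, 8.45 in CAST+/129- and 7.12 in CAST-/129+, intervals that span no change. Hist1h1a, a linker histone gene, had 5.06, 5.15, 9.91 and 3.43 FPKM in the 4 libraries.

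Of the H3 genes Hist2h3c2, Hist1h3h, Hist1h3g and Hist1h3a had the highest means. Hist2h3c2, annotated as a pseudogene, was at 6.99, 9.74, 12 and 9.98 FPKM and Hist1h3a at 3.91, 7.35, 9.55 and 5.44 FPKM in the 4 libraries. Hist1h3g was at 3.64, 6.35, 9.62 and 8.07 FPKM and Hist1h3h at 6.09, 6.89, 10.4 and 4.91 FPKM in the 4 libraries. The ratio of Hist1h3h in CAST-/129- was 0.805 (0.420 to 1.44), within counting error of no change.

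Many members share long stretches of sequence, so their reads cannot always be told apart. The shares that follow are for stretches of 50 bases. The reads described in the paper are longer, so these shares may understate how many reads had 1 place. The median member had 52.3% of its 50-base stretches once in the genome, 12 members had under 20%, and 13 had at least 80%. Hist1h2ao and Hist1h2ap are identical over 519 bases, yet 286 and 229 alignments were placed on them in wild type, so reads with more than 1 possible place were kept in the RNA files. Of these, 55 had the same offset and length on both copies. Values of single members with near-identical copies are uncertain for this reason.

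Counting only the positions whose centred 50-base stretch occurs once left 43 members. Their sum was 1.69 (1.56 to 1.83), 2.81 (2.58 to 3.06) and 2.02 (1.83 to 2.22) times wild type in the mutant libraries. H4 was then 2.91 (2.41 to 3.53), 3.67 (2.96 to 4.56) and 1.94 (1.48 to 2.53) times wild type. H2a, over 9 genes, was 1.40 (1.11 to 1.78), 2.12 (1.63 to 2.74) and 1.43 (1.04 to 1.93) times, where the full exons of the 19 H2a genes gave 1.002 in CAST-/129-. The intervals of H4 and H2a overlapped in CAST-/129-, where H2b was at 2.49 and H1 at 2.07 times wild type. This choice was made after the data were seen.

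By their median, the chromosome 13 members had higher ratios than the members elsewhere. The median log2 ratio of the 56 was 0.46, 0.74 and 0.37 in the mutant libraries, and that of the 13 elsewhere was 0.06, 0.32 and 0.14. The differences were 0.40, 0.41 and 0.23. As sums, chromosome 13 was 1.71, 2.30 and 1.66 times wild type, and the others were 1.20, 1.78 and 1.39 times. With the members limited to those with at least 80% of stretches occurring once, the difference was -0.01, 0.04 and 0.10, where 13 members remained, and in CAST+/129- the sign turned.

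Within chromosome 13 the first group of 24 was at 1.69, 2.16 and 1.48 times wild type and the second group of 31 at 1.72, 2.39 and 1.78 times. Chromosome 3 was at 1.23, 1.74 and 1.31 times. Chromosome 11, with 3 genes, was at 0.362 (0.147 to 0.778), 1.68 (0.911 to 2.96) and 1.74 (0.947 to 3.08) times, and Hist4h4 on chromosome 6 at 1.69, 3.28 and 3.62 times. In CAST+/129- the H4 sum was 3.20 times wild type in the first group and 3.24 times in the second. In CAST-/129- it was 3.20 (2.48 to 4.12) and 1.98 (1.51 to 2.59) times.

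Genes with no histone name between the first and last member of the chromosome 13 groups numbered 111, of which 7 had a mean of at least 1 FPKM. None of the 111 passed 2-fold upward in any comparison, and 1 passed it downward, in CAST-/129+. With the pseudo-value, a gene with a mean below 1 FPKM over the libraries cannot pass 2-fold. Only the 7 could therefore be called, and the count cannot show whether the rest of the 111 rose. Of all genes with a mean of at least 1 FPKM, 2.06%, 2.78% and 4.55% passed 2-fold upward in the mutant libraries. The sums over the 111 were 1.22, 1.27 and 1.08 times wild type. The 7 held 2527 of the 2727 alignments in wild type and had median log2 ratios of -0.17, -0.01 and -0.10.

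**Figure D3:**
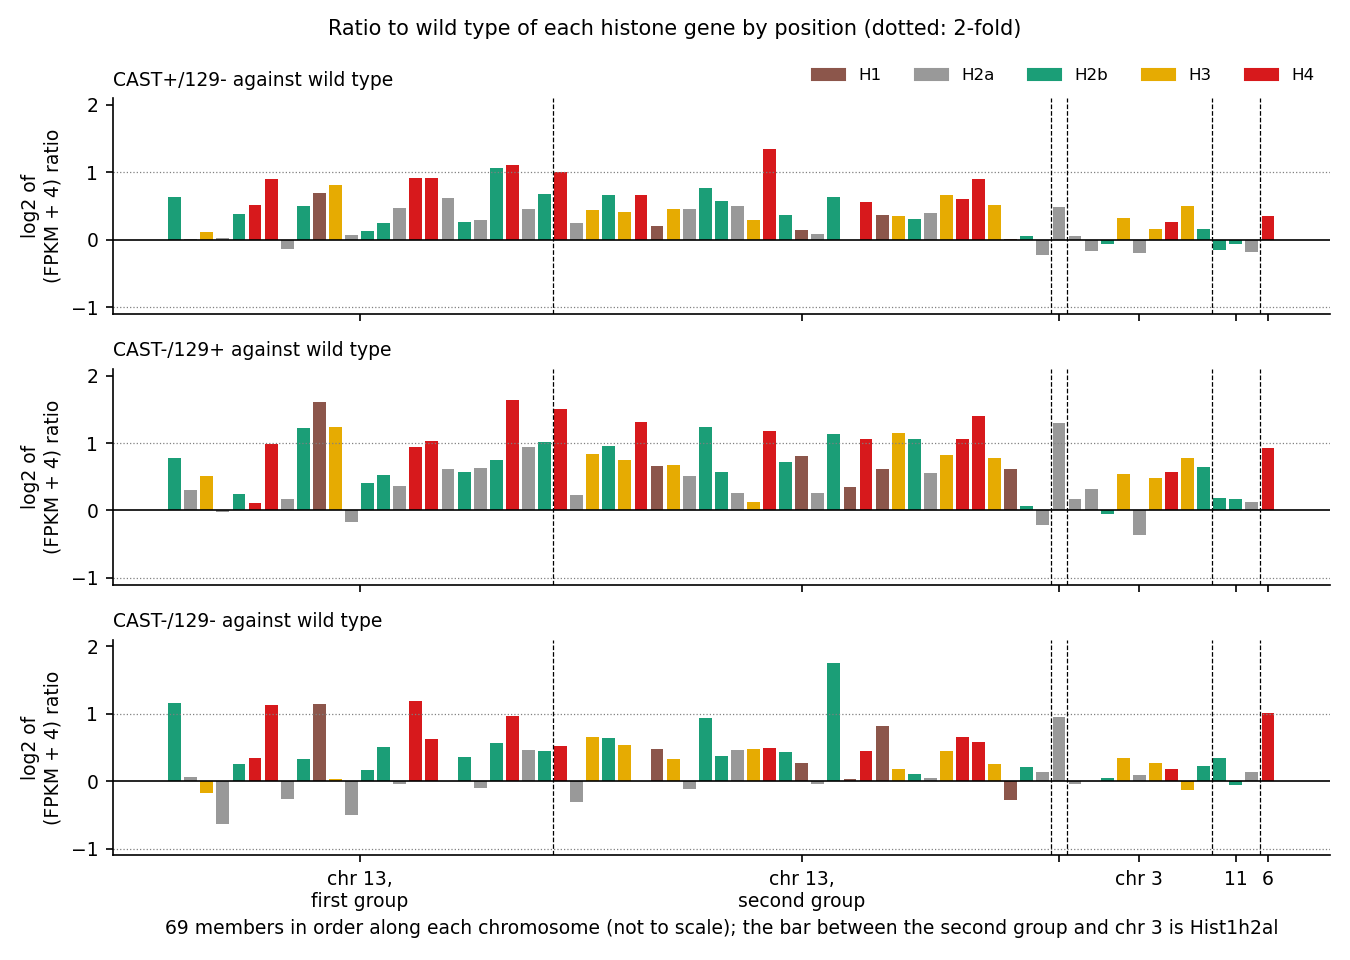
Log2 ratio of FPKM plus 4 to wild type (vertical axis) for the 69 members in their order along each chromosome (horizontal axis, not to scale), 1 panel a mutant library, coloured by histone type. Dotted lines mark 2-fold and dashed lines separate the groups. H4 bars are above 0 in the 3 panels, the tallest bar in CAST-/129+ is Hist1h4i (1.63) and in CAST-/129- Hist1h2bc (1.76).

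H2a and H2b genes often lie head to head. There were 13 such pairs with starts 168 to 306 bases apart (median 216), and they share the DNA between them. The H2b gene had the higher log2 ratio in 11 pairs in CAST+/129-, 11 in CAST-/129+ and 10 in CAST-/129-. Median log2 ratios were 0.09, 0.30 and 0.00 for the H2a partners and 0.49, 0.58 and 0.38 for the H2b partners. These ratios use full exons. The pairs of Hist1h2ao with Hist1h2bq and of Hist1h2ap with Hist1h2br held no stretch that occurs once. Over positions that occur once, the medians of all H2a genes kept were 0.06, 0.12 and 0.12, and of all H2b genes kept 0.09, 0.44 and 0.15. In the pair of Hist1h2ac and Hist1h2bc, 251 bases apart, the log2 ratios in CAST-/129- were -0.04 and 1.76.

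Hist1h2bc, an H2b gene, had the highest mean level of its type and, on the log2 scale with the pseudo-value, the highest value in CAST-/129- (1.76). It was at 7.10, 13.2, 20.3 and 33.5 FPKM in the 4 libraries, so the library without the enhancer on either allele was the highest. The plain FPKM ratio there was 4.72 (3.69 to 6.02), beside 4.73 (2.94 to 7.64) for Hist1h1b and 7.45 (1.89 to 34.7) for Hist1h4n, which had 4 alignments in wild type and 7 in CAST-/129-.

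The annotated Hist1h2bc transcript has 2 exons, and this makes its RNA forms partly separable. The first exon, chr13:23776068-23776490, holds the coding sequence and stops 26 bases before the stem-loop shown above. The second exon of 313 bases, chr13:23784045-23784357, starts 7529 bases past the start of the stem-loop, so the spliced form lacks the stem-loop. Of 423 positions in the first exon, 50 had a centred stretch that occurs once, against 264 of 313 in the second.

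The second exon held 43, 34, 29 and 78 alignments in the 4 libraries. That was 33.1% (25.1 to 41.9), 28.1% (20.3 to 37.0), 31.9% (22.5 to 42.5) and 54.2% (45.7 to 62.5) of the gene's exonic alignments. Relative to wild type, the second exon was at 1.58 (0.97 to 2.53), 2.76 (1.66 to 4.53) and 7.72 (5.26 to 11.5) times. The first exon was at 1.99 (1.46 to 2.71), 2.92 (2.07 to 4.09) and 3.23 (2.31 to 4.50) times. In CAST-/129- the second exon's interval lay above that of the first exon, and in the single-allele clones the intervals overlapped.

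The annotated exon of Hist1h1c, a linker histone gene, runs 839 bases past its stem-loop. Its level was 5.64, 8.47, 10.8 and 12.9 FPKM in the 4 libraries. Of its exonic alignments 47.9% (41.2 to 54.8), 40% (32.5 to 47.9), 27.5% (19.1 to 37.2) and 52.5% (43.1 to 61.8) lay past the stem-loop in the 4 libraries. In CAST-/129+ the part up to the stem-loop was 2.66 (1.96 to 3.59) times wild type and the part past it 1.09 (0.69 to 1.67) times. In CAST-/129- both parts were higher, at 2.09 (1.49 to 2.90) and 2.51 (1.81 to 3.47) times.

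**Figure D4:**
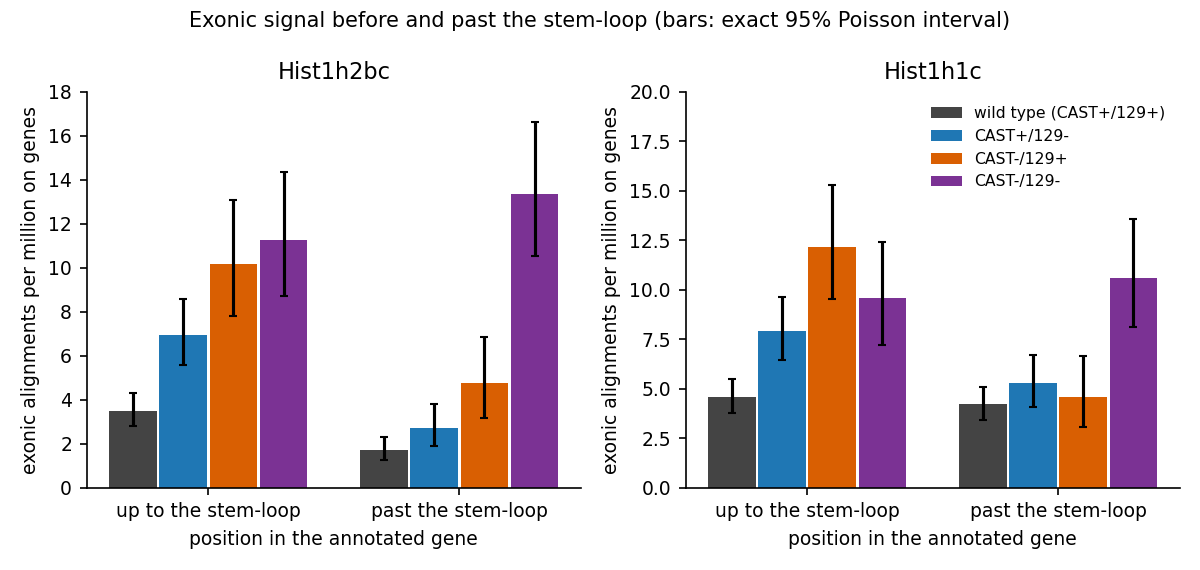
Exonic alignments as CPM (vertical axes, from 0) up to and past the stem-loop for Hist1h2bc and Hist1h1c in the 4 libraries (colours), with exact 95% Poisson intervals. For Hist1h2bc the part past the stem-loop is its second exon, at 1.73 in wild type and 13.3 in CAST-/129-, and for Hist1h1c the part past it is 4.22 in wild type and 10.6 in CAST-/129-.

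Over the 59 members with a stem-loop, of which 57 had countable bases past it, the alignments in the 500 bases past it, cut at the next exon, were compared with those up to it. The share past it was 4.60% (3.96 to 5.30), 5.11% (4.38 to 5.92), 4.61% (3.76 to 5.58) and 9.30% (7.85 to 10.9) in the 4 libraries. Over 500 bases the intervals of the first 3 libraries overlapped, and that of CAST-/129- lay above them. Over 200 bases the shares were 1.54% (1.17 to 1.98), 2.83% (2.29 to 3.47), 2.27% (1.68 to 2.99) and 4.22% (3.22 to 5.42), so CAST+/129- lay above wild type and CAST-/129- overlapped CAST+/129-. Over all annotated exon past the stem-loop, in the 16 members with countable bases on both sides of it, the shares were 16.9% (14.98 to 19.05), 14.3% (12.4 to 16.5), 10.3% (8.29 to 12.6) and 26.9% (23.6 to 30.4), so CAST-/129- was again highest while CAST-/129+ lay below wild type. Without Hist1h1c and Hist1h2bc they were 8.08% (6.46 to 9.94), 7.46% (5.79 to 9.43), 4.42% (2.95 to 6.32) and 10.6% (7.81 to 13.9), and the intervals of CAST-/129- and wild type overlapped. Both choices of members were made after the data were seen. The order of the other 3 libraries therefore changed with the window.

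Hist1h1c had 163 of the 582 alignments past the stem-loop, Hist1h4i 52, Hist1h4m 40, Hist2h3c1 29 and Hist1h2bg 16, with Hist1h4d and Hist1h4h equal to the last, while 9 of the 57 had none. Hist1h2bc was among the 9, since its second exon starts beyond these 500 bases. Without the 4 members with the most, a choice made after the data were seen, the share was 2.44% (1.95 to 3.02), 3.53% (2.88 to 4.27), 3.06% (2.33 to 3.95) and 4.89% (3.73 to 6.27), and of the mutant libraries CAST-/129- had an interval above that of wild type. Without the 3 tied members too, it was 2.27% (1.78 to 2.84), 3.49% (2.81 to 4.27), 2.65% (1.94 to 3.53) and 3.86% (2.80 to 5.18), and the intervals of the 3 mutant libraries overlapped that of wild type. Hist1h4m supplied 22 of its 40 in CAST-/129-, with 9, 2 and 7 in wild type, CAST+/129- and CAST-/129+.

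Members with the stem-loop motif had median log2 ratios of 0.43, 0.66 and 0.30, and the 11 without a match 0.25, 0.55 and 0.35, and the order of these medians differed between the libraries. Malat1, Neat1 and Scarna2, genes with transcripts that end without a polyA tail (for Neat1 the long isoform only, which the gene level does not separate), did not share a direction. Malat1, which had most of their signal, was at 0.800, 0.900 and 1.35 times wild type, Neat1 at 1.01, 0.694 and 1.16 times and Scarna2 at 1.12, 1.20 and 1.14 times. The list held 7 genes, and 3 were measured.

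Other lists give the background to these values. Of 16 genes for histone mRNA transcription and processing none passed 2-fold, with medians of 0.10, -0.01 and -0.06. Slbp was at 27.8, 30.5, 35.0 and 31.5 FPKM, and Npat, a co-activator of histone genes at S phase, at 21.4, 21.6, 17.96 and 17.9 FPKM, in the 4 libraries. Of 15 histone chaperones none passed 2-fold, with medians of 0.19, 0.15 and 0.12.

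Of 22 genes of DNA replication and S phase, none was called at 3-fold, with medians of 0.16, 0.06 and -0.08. Pola1, a subunit of the DNA polymerase that starts new strands, went from 25.9 FPKM in wild type to 15.2, 14.1 and 8.79, past 2-fold in CAST-/129- only. These levels are of the polyadenylated mRNAs of those genes.

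The 11 variant histone genes, which include H2afx, a gene with the stem-loop motif, had medians of -0.12, -0.02 and -0.17, and none was called at 3-fold. H2afx was at 189.1, 118.6, 153.8 and 114.4 FPKM in the 4 libraries, below wild type in each mutant library. H2afz, an H2A variant, was at 154.9, 198.1, 245.1 and 189.5 FPKM. H3f3b, which encodes H3.3, was at 102.7, 94.4, 110.9 and 101.1 FPKM. H1f0, a linker histone of resting cells, was at 25.7 FPKM in wild type and 10.05 in CAST+/129-, a change past 2-fold, and at 27.7 and 28.8 in the other mutant libraries.

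Other cell markers moved with the comparisons. The 8 fibroblast markers summed to 90.8, 539.5, 560.0 and 2853.4 CPM in the 4 libraries. At 3-fold Col1a1 and Col1a2 rose in each mutant library, and Col3a1, Fbn1, Postn, Dcn and Lum in CAST-/129-, which makes 2, 2 and 7 of the 8. Of all genes, 0.321%, 0.473% and 0.813% rose so. Lum had 0 alignments in wild type, and Thy1 was at 11.4, 5.68, 6.26 and 27.6 FPKM, past 2-fold upward in CAST-/129- and below wild type in the single-allele clones. Of 7 ES cell markers 4 fell past 3-fold in CAST-/129-, namely Sox2, Nanog, Zfp42 and Esrrb, while Dppa5a, Tdgf1 and Pou5f1 did not. In that library 0.511% of all genes fell so. CAST-/129- was the library with the most fibroblast marker signal, the highest second exon of Hist1h2bc and the largest share past the stem-loop, whereas the H4 sum was highest in CAST-/129+. Which cells these marker mRNAs came from was not tested, nor was their part in the histone values.

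Promoter marks were read as 5′ ends of distinct alignments within 1 kb of the gene start, relative to the genome mean of the library, in wild type cells. No input library was used. H3K4me3 marks active and poised starts, and H3K27ac marks active promoters and enhancers. The median H3K27ac of the 69 members in F123 was 13.4 times the genome mean, against 0.837 over all gene starts. In J1 it was 11.6 against 1.53. At least 5 times the mean was reached by 60 members in F123 and 57 in J1, where 28.7% and 24.8% of all gene starts did.

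The labels and the study's methods name different H3K4me3 antibodies, so which was used is uncertain. The median H3K4me3 of the members was 4.46 times the genome mean, against 2.23 over all gene starts and 6.13 over protein-coding ones, and 27 of 69 reached 5 times, where 40.7% of all gene starts did. The chromosome 13 members had a median of 4.09 and the others 12.6. Those on chromosome 13 include members with 0 alignments and no stretch that occurs once (below), which lowers their median. Many starts lie close together, so the 69 windows form 40 separate blocks and are not independent.

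Hist4h4 had the highest promoter H3K4me3, at 19.7 (16.1 to 23.8), followed by Hist3h2a at 15.2 and Hist3h2bb-ps at 15.05. Hist4h4 also had the highest H3K27ac in F123, at 93.7 (77.2 to 112.8). At the RNA level Hist4h4 was at 2.58, 4.36, 8.44 and 9.32 FPKM in the 4 libraries, and Hist3h2a at 1.10, 0.500, 1.54 and 1.60 FPKM. The 35, 8, 12 and 12 alignments of Hist3h2a all lay past its stem-loop, and it had 0 countable bases up to it, so its level describes the extended 3′ part only. Across the 69 members the rank correlation of wild type FPKM with the marks was -0.12 for H3K4me3, 0.04 for H3K27ac in F123 and -0.02 for H3K27ac in J1, given as a description of genes that share reads and windows. It includes Hist1h2ao, Hist1h2ap, Hist1h2bq and Hist1h2br, whose promoter values of 0 cannot be read as low marks (below). Of these, Hist1h2ao and Hist1h2ap were at 22.1 and 17.7 FPKM in wild type, so the correlation is not a measure of how level follows the marks.

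The lowest promoters were those of Hist1h2ao, Hist1h2ap, Hist1h2bq and Hist1h2br, at 0 alignments in the 3 ChIP libraries, where the exact upper limits were 0.685 times the genome mean for H3K4me3, 3.09 for H3K27ac in F123 and 0.629 in J1. Their exons held no 50-base stretch that occurs once. The RNA libraries placed reads on them, for example 105 alignments on Hist1h2bq in wild type. The value of 0 is not read as absence of a mark.

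**Figure D5:**
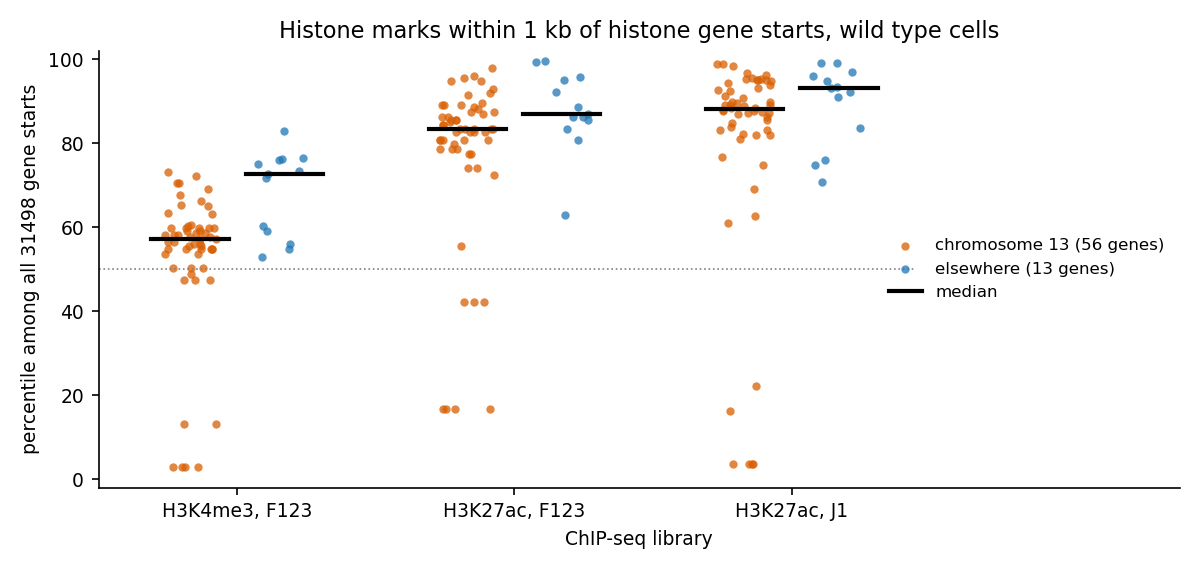
Percentile among all 31498 gene starts (vertical axis) of each member's H3K4me3 or H3K27ac signal within 1 kb of its start, in 3 ChIP-seq libraries of wild type cells (horizontal axis), for chromosome 13 (orange) and elsewhere (blue), with medians as black lines. Most members lie high for H3K27ac, where 60 of 69 in F123 are at least 5 times the genome mean, and nearer the middle for H3K4me3, where 27 of 69 are.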

How the data were processed

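RNA-seq of 4 and ChIP-seq of 3 mouse ES cell cultures were analysed. The authors mapped the RNA reads with Novoalign and the ChIP reads with Bowtie to mm9, per the labels' processing notes, and deposited positions of distinct alignments, each with a whole-number count of the reads behind it. How reads with several placements were handled, and versions, were not given in the sources used here. Distinct alignments were counted by midpoint, on the transcript strand (opposite to the deposited strand), in exonic bases of 1 gene of GENCODE M1. Depth was 7557984 to 33684661 distinct alignments for RNA and 1576875 to 7743500 for ChIP. Reads per distinct alignment on members were 1.13 to 1.44, against 1.47 to 2.61 on all genes. FPKM used alignments on genes as library size (5847451 to 24891864). A gene was called past 3-fold of FPKM plus 4. Intervals are exact at 95%. Positions on the genome are 1-based on mm9 (NCBIM37) unless GRCm38.p6 is named. Values were computed in python (3.11.15) with scipy (1.17.1), pandas (2.3.3) and numpy (2.4.6) and drawn with matplotlib (3.10.9). The fold rule and intervals were tried on simulated Poisson counts, in genes above the wild type level of most members. That trial does not cover the levels of most members or the spread between libraries.

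Members named were the 4 with the highest mean FPKM of each type, those past 3-fold, the 3 highest and 3 lowest ratios with a mean of at least 5 FPKM per comparison, the 3 highest and lowest H3K4me3 promoters and the 5 with most alignments past the stem-loop. Of the other lists, genes past 2-fold, Slbp, Npat, H2afz and H3f3b were named. Hist1h2ac, Hist1h2al, Hist1h2br, Hist1h4n and the list genes that were not past 2-fold were named after their values were seen. The members and lists were chosen with earlier results of these data known. Hist1h2bc exons, Hist1h1c parts, head-to-head pairs and length classes were examined after values were seen. The scaling, pseudo-value, strand, filter, depth, window and copy-number settings were varied.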

Additional observations from a re-analysis of the deposited data

How the results depend on the processing

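No paired analysis was possible because each genotype is 1 library, and no replicate was left out for the same reason. The median log2 ratio of the members was above 0 under each setting run. No member fell past 3-fold under any of them. At the reported settings, only some H2a members had a wild type level from which such a call was possible. The cause of the shifts below was not tested.

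Except at 2-fold, the share of all genes called was not computed under the settings that follow, so their counts of calls stand without a background. With a pseudo-value of 1 FPKM, 3, 15 and 4 members rose in CAST+/129-, CAST-/129+ and CAST-/129-, and the medians were 0.59, 1.06 and 0.52. With 10 FPKM, 0 rose in CAST-/129+ and in CAST-/129-, and the medians were 0.22, 0.40 and 0.16. At 2-fold 4, 17 and 6 members were called. Thinning to the shallowest library gave 1 call in CAST+/129-. In CAST-/129+ 1 member rose with reads before collapsing, with both strands or among members with 80% of 50-base stretches occurring once, and 0 rose, with a median of 0.51, when all distinct alignments set the library size. In CAST-/129- 0 rose with both strands or among those members. In CAST+/129- the median was 0.16 among those members and 0.19 over positions that occur once, a setting added after seeing the data.

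The chromosome 13 difference in CAST+/129- was 0.57 with a pseudo-value of 1, 0.26 with 10, 0.30 for genes of at least 1 FPKM, 0.57 after thinning and -0.014 among members with 80% of stretches occurring once, a change of sign. In CAST-/129+ it was 0.25 with a pseudo-value of 10, 0.23 for genes of at least 1 FPKM and 0.043 among those members.

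Median promoter H3K4me3 was 3.53 within 2000 bases and 2 relative to the median gene start. H3K27ac in F123 was 9.63 and 16 under these settings, and in J1 8.19 and 7.56, with 9.20 within 500 bases. The share past the stem-loop within 200 bases was 1.54%, 2.83%, 2.27% and 4.22% in the 4 libraries, and there CAST+/129- separated from wild type while CAST-/129- no longer separated from CAST+/129-. Without Hist1h1c, left out after seeing the data, it was 3.09% in wild type, 4.01% in CAST+/129- and 6.94% in CAST-/129-.

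Of the ratios by type under other settings, 22 moved beyond their interval and 98 did not, and of those of named members 77 did and 631 did not. The counts that did not move include comparisons that could not. The ratios by type use no pseudo-value, so the pseudo-value settings left them as they were. The filters on level and on stretches that occur once drop members but cannot change the ratio of a single member. None of the ratios by type changed direction where the interval excluded 1. For named members a change of direction was looked for only where the reported ratio was past 3-fold, and none was found there.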
